A study of Mus musculus with 12 samples.

Results

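The genes described here are the nuclear genes for subunits of oxidative phosphorylation and for complex I assembly factors, chosen by symbol: every gene in the deposited gene list whose symbol starts with Nduf followed by a, b, c, s or v, is Sdha to Sdhd, starts with Uqcr, starts with Cox4 to Cox8, or starts with Atp5. The rule found 94 of 27457 symbols. Of these, 37 belonged to complex I, 8 were complex I assembly factors (Ndufaf genes), 4 belonged to complex II, 8 to complex III, 20 to complex IV and 17 to complex V. The rule itself uses no measured value. All 94 had at least 1 count, and 82 reached 20 CPM over all cells, where CPM is the UMI count of a gene in a total of 1000000.

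Oxidative phosphorylation takes place at the inner mitochondrial membrane. Complexes I and II pass electrons from NADH and succinate to ubiquinone, complex III passes them to cytochrome c, and complex IV to oxygen, while I, III and IV pump protons that drive complex V, the ATP synthase. Most subunits are encoded in the nucleus and a few core ones in the mitochondrial genome, and several complex IV subunits have a second gene copy used in particular tissues. Activated macrophages and T cells are known to shift between oxidative phosphorylation and glycolysis.

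Single-cell RNA sequencing counted transcripts in 93126 cells of 48 tumors of MC38, a mouse colon carcinoma line made in C57BL/6J (B6), grown in female hosts 8 to 12 weeks old. Hosts were B6 or F1 animals of B6 and a Collaborative Cross (CC) strain, so that every CC host carried a B6 chromosome set beside a set from CC001/UncJ, CC002/UncJ, CC075/UncJ, CC036/UncJ, CC079/TauUncJ, CC080/TauUncJ or CC007/UncJ. At 75 to 110 mm3 they received 200 µg of isotype control antibody or of anti-PD1 (aPD1), and tumors taken 48 h later were sorted to 90% CD45-positive and 10% CD45-negative cells. The study classed CC001, CC002 and CC075 hosts as responders (10 isotype and 10 aPD1 tumors) and CC036, CC079 and CC080 hosts as non-responders (9 and 9), from tumor growth in other animals. The other 10 tumors, of B6 and CC007 hosts, had no class. Each of 12 libraries pooled 4 hashtagged tumors, an isotype and an aPD1 tumor of 2 kinds of host, and the hashtags used for isotype tumors were never used for aPD1 tumors, so that hashtag and treatment cannot be told apart. The 48 tumors came from 47 animal identifiers.

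A count is a unique molecular identifier (UMI), which marks 1 captured transcript end, so levels are in CPM of the summed UMIs and need no scaling by gene length. The median cell had 3333.5 UMIs, tumors held 53 to 3082 cells and 88816 to 17713491 UMIs, and 10176 cells had a barcode that stood in more than 1 library. Every cell carried 1 of 4 hashtags. No doublet caller was run, and a doublet step is not given in the sources used here, so that doublets within a tumor, which a hashtag cannot show, may remain, and their part in any cluster, among them the deep cluster 15 and cluster 5 with its Igkc, was not tested. The authors' 27 clusters carry numbers only in the deposited data, while the study's text names some of them. From marker lists, 9 clusters were called macrophages (55995 cells), 9 were called T/NK cells (12021 cells), 1 each was called cDC1, cDC2, migratory DC, pDC, fibroblast and granulocytic, and clusters 5, 20 and 25 (15724 cells) stayed unnamed. No cluster could be named MC38. Cluster 5, which the study's text counts among its macrophage subclusters, had all 10 macrophage markers at 100 CPM. It stayed unnamed because Igkc, a B cell gene, was among its 10 leading genes, and the macrophage tests were also run with cluster 5. Reads were aligned to the B6 genome while CC hosts carry other alleles, and the part of this in a difference between strains was not tested.

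Complex V carried the largest summed level over all cells, 9519 CPM, followed by complex I with 8009 CPM, complex IV with 7845 CPM and complex III with 2688 CPM. Complex II, which also serves the TCA cycle, had 364 CPM, and the assembly factors, which help build complex I and leave it, had 217 CPM. The 5 highest genes were Atp5e (1460 CPM), a small subunit of the ATP synthase rotor stalk, Cox8a (1323 CPM), Cox4i1 (1035 CPM), Cox7c (868 CPM) and Cox6c (864 CPM), the last 4 all subunits of complex IV. Levels within a complex were far from equal. Complex I ranged from Ndufb1-ps at 649 CPM down to Ndufs1, its large iron-sulfur subunit, at 27.9 CPM, and the assembly factors from Ndufaf8 at 78.8 CPM to Ndufaf1 at 8.79 CPM. In complex II, Sdhb (151 CPM) was highest and the flavoprotein Sdha (67.0 CPM) lowest. Uqcrh (565 CPM) and Uqcrc2 (65.7 CPM) bounded complex III, Atp5e and Atp5c1 (240 CPM) complex V, and Cox8a and Cox8c (0.0024 CPM, 1 UMI in all cells) complex IV.

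The share of all UMIs that came from the 94 genes differed between the clusters. These shares are a description, since the clusters were made from the same cells. Several clusters lay close together. Macrophage clusters 2 and 26 had 2.88% and 2.92%, and macrophage cluster 17, led by histone genes, had 2.90%. T/NK cluster 3 had 3.01%, the cDC2 cluster 2.99% and cluster 22, called fibroblast, 2.87%. Others were lower. In T/NK cluster 7, the largest of its class, 80 of the 94 genes were below their level in all other cells. Its share ran from 1.71% to 3.24% over the 34 tumors with at least 30 of its cells. Over the tumors with at least 30 cells, cluster 2 ran from 2.45% to 3.47% (median 2.87%, 46 tumors) and cluster 26 from 2.35% to 3.29% (median 2.92%, 46 tumors), so that the 2 largest macrophage clusters overlapped almost throughout.

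**Figure D1:**
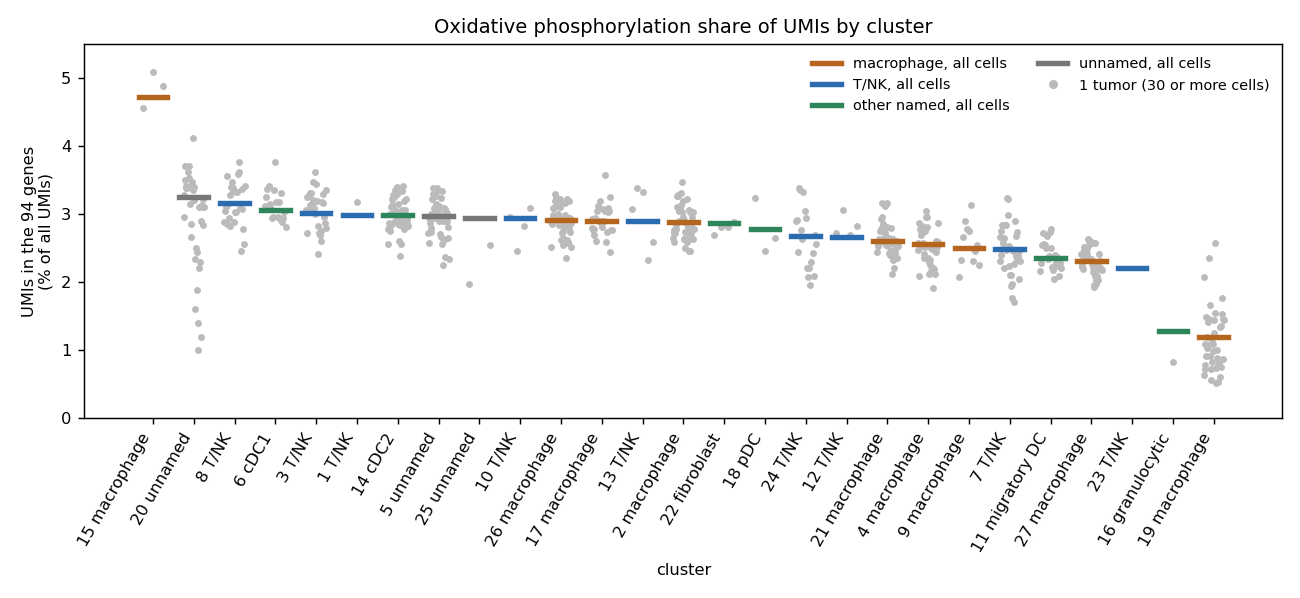
Share of all UMIs from the 94 genes in each of the 27 clusters, in percent. Grey points are tumors with at least 30 cells of the cluster and bars the sum over all its cells, coloured by cell class, and cluster 15 lies above 4.5% in its 3 tumors, and clusters 16 and 19 lie lowest.

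Macrophage cluster 15 stood highest, at 4.72%. Its 3 tumors with 30 cells or more gave 4.56%, 4.88% and 5.09%, above the highest tumor of every other cluster, and all 3 were of CC079 hosts. The cluster is small, with 293 cells, had the highest median of all clusters in UMIs per cell (10418), and was led by Ctsk, Atp6v0d2, Mmp9 and Acp5, genes known from osteoclasts. The rise was broad: 86 of the 94 genes were above their level in all other cells, 62 had their highest cluster here, and the median ratio over the 82 genes of at least 20 CPM was 1.72. Atp5g3, a gene for the proton-carrying c subunit of complex V, was 2.66 times its level in the other cells, at 1925, 1943 and 2034 CPM in the 3 tumors against a median of 694 CPM in cluster 2. The smallest of these 82 ratios was 1.03, for Ndufb1-ps. Without mitochondrial genome and ribosomal protein genes in the totals the share of cluster 15 was 6.51%, still the highest.

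The lowest shares were in macrophage cluster 19 (1.20%) and in the granulocytic cluster 16 (1.28%). In cluster 16 all 94 genes were below their level in the other cells, with a median ratio of 0.387. A single tumor had at least 30 of its cells, with a share of 0.833% from 115 cells, so that the spread between tumors is not known. The cells of cluster 16 were the shallowest, with a median of 815 UMIs. Cluster 19 ran from 0.521% to 2.57% over 42 tumors. Its UMIs held the largest mitochondrial genome share of all clusters (4.42%), a low ribosomal share (7.47%) and a low median depth (1225 UMIs), and it had 0.271 nuclear subunit UMIs for each mitochondrial genome UMI, where cluster 2 had 2.41. Ndufs1 went against this trend, at 0 to 115 CPM over the tumors of cluster 19 (median 37.1 CPM) and 15.9 to 34.7 CPM in cluster 2 (median 23.6 CPM). The part of RNA quality in these 2 low clusters was not tested. Between these extremes, macrophage cluster 27, led by Gpnmb, with Hmox1 and Egln3 among its leading genes, had 2.32% (1.93% to 2.64% over 43 tumors), migratory DC 2.36%, and T/NK cluster 8, led by Foxp3, known from regulatory T cells, 3.17% (2.45% to 3.76% over 28 tumors).

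**Figure D2:**
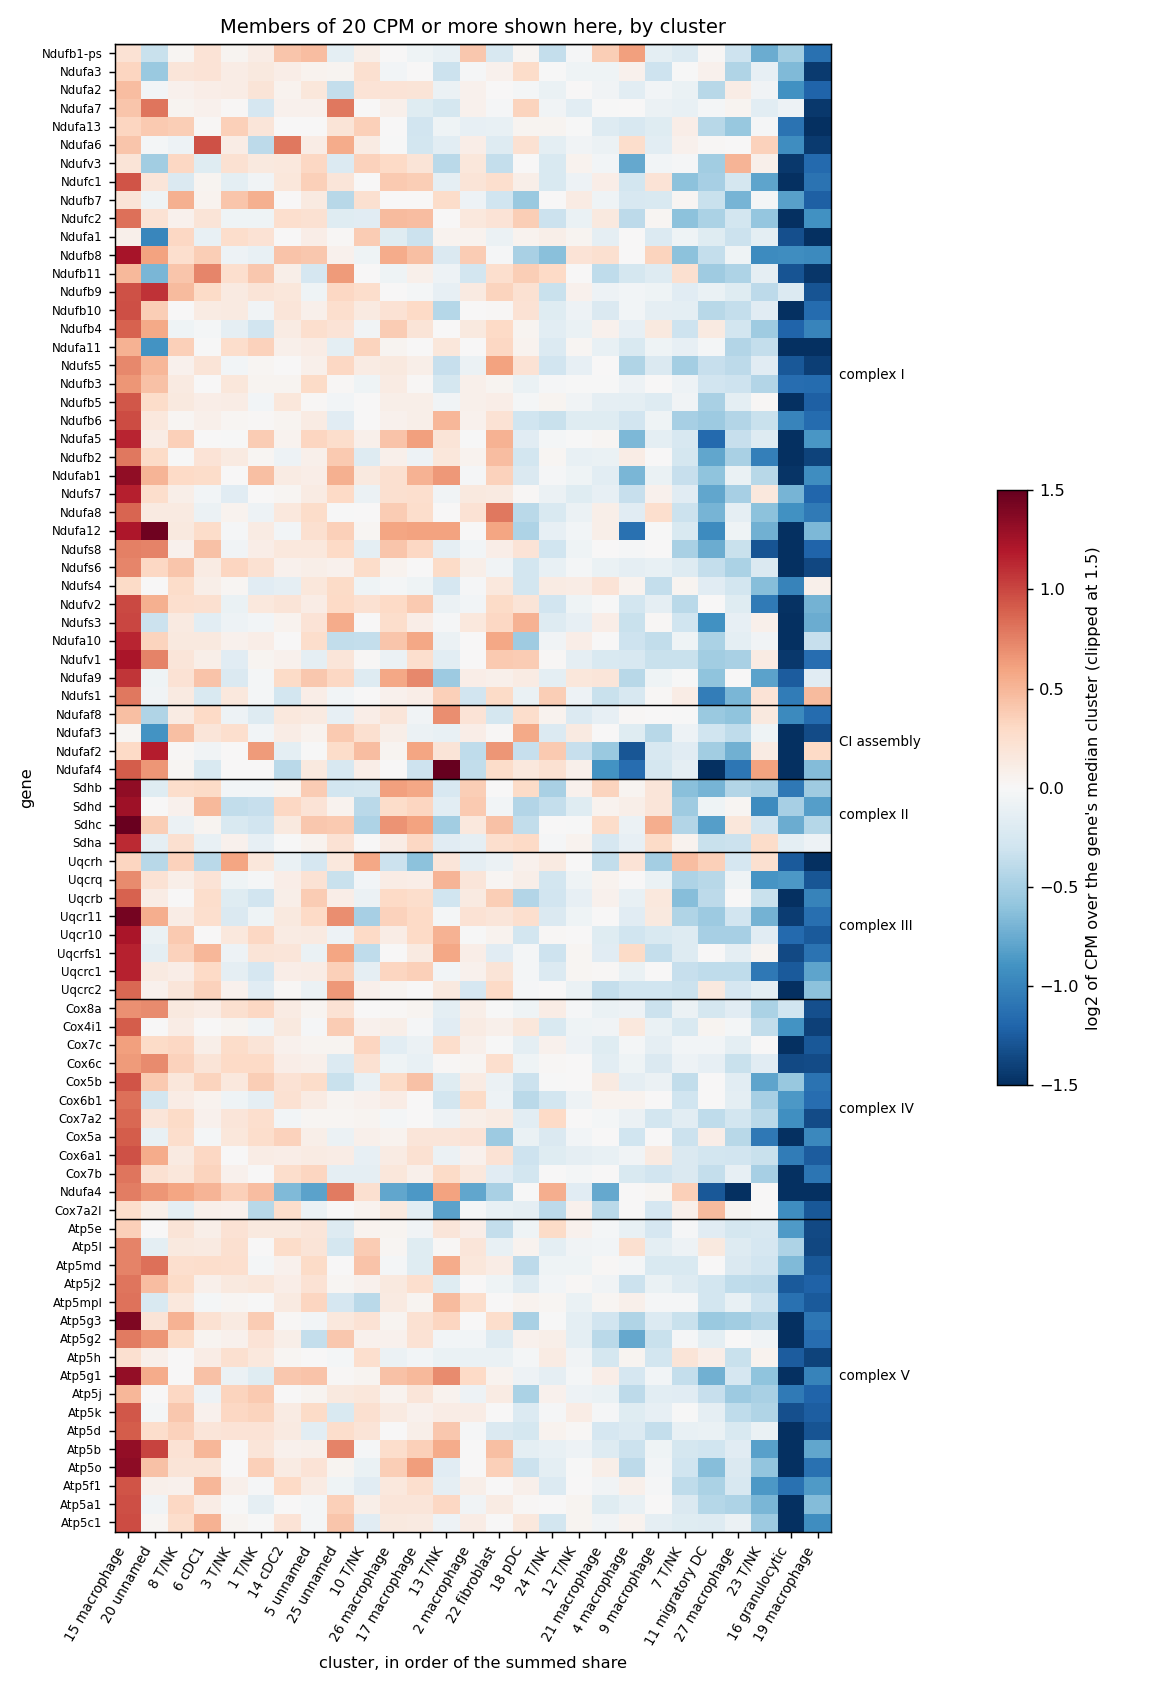
Level of genes of at least 20 CPM in each cluster over the gene's median cluster, as log2 ratios of CPM clipped at 1.5, with genes in rows grouped by complex and clusters in order of their summed share. Cluster 15 is raised across complexes, clusters 16 and 19 are lowered, and Ndufa4 and Ndufaf4 follow patterns of their own.

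The genes whose peak cluster was the most times their median cluster were Cox6a2 (2421 times), Ndufa4l2 (1480 times), Cox4i2 (318 times), Cox7a1 (4.71 times) and Ndufaf4 (3.28 times). The first 4 are second copies of a subunit, and Ndufaf4 is a complex I assembly factor.

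Cox6a2, the heart and muscle form of the complex IV subunit Cox6a, was a transcript of the pDC cluster 18, where 314 of 458 cells (68.6%) had a UMI, at 1640 CPM. The 3 tumors with at least 30 of these cells had 1211, 1546 and 2495 CPM. Cox6a1, the common form, was at 307, 331 and 388 CPM in the same tumors, so the muscle form was the higher in each. Unnamed cluster 20 came next with 48.8 CPM and a UMI in 12.8% of cells (0 to 150 CPM over 37 tumors), while macrophage cluster 2, of greater median depth (3881 against 3004.5 UMIs), had a UMI in 0.253% of cells. Of all Cox6a2 UMIs, 57.7% fell in cluster 18. The gene lies at chr7:128205435-128206387 on the minus strand of GRCm38.

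Cox4i2, the copy of Cox4 known from lung and from low oxygen, was highest in cluster 22, which held the fibroblast name by 3 markers among its 10 leading genes but also had 2 pericyte markers there, Rgs5 and Acta2, and all 7 fibroblast and all 4 pericyte markers at 100 CPM. Of 4 endothelial markers 3 were at 100 CPM as well, with 0 among the leading genes. Fibroblasts, pericytes and endothelial cells can therefore not be told apart in cluster 22. Cox4i2 had a UMI in 38.1% of the 582 cells and ranged over 171 to 526 CPM in 4 tumors, below Cox4i1 at 1061 ± 56.4 CPM (SD, n = 4) in the same tumors. Macrophage cluster 27 followed at 22.8 CPM, with a UMI in 7.29% of cells and 0 to 80.1 CPM over 43 tumors (median 22.3 CPM). In T/NK cluster 8 it was seen in 4 of 2206 cells (0.181%, median depth 1375.5 UMIs). Ndufa4l2, a copy of Ndufa4 known to rise under low oxygen, showed the same leading pair of clusters, with 44.8% of cluster 22 cells and 247 to 752 CPM over its 4 tumors, and 12.1 CPM in cluster 27. The 43 tumors of cluster 27 ran from 0 to 66.2 CPM and 14 of them had none. In T/NK cluster 3 it was seen in 1 of 2809 cells.

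**Figure D3:**
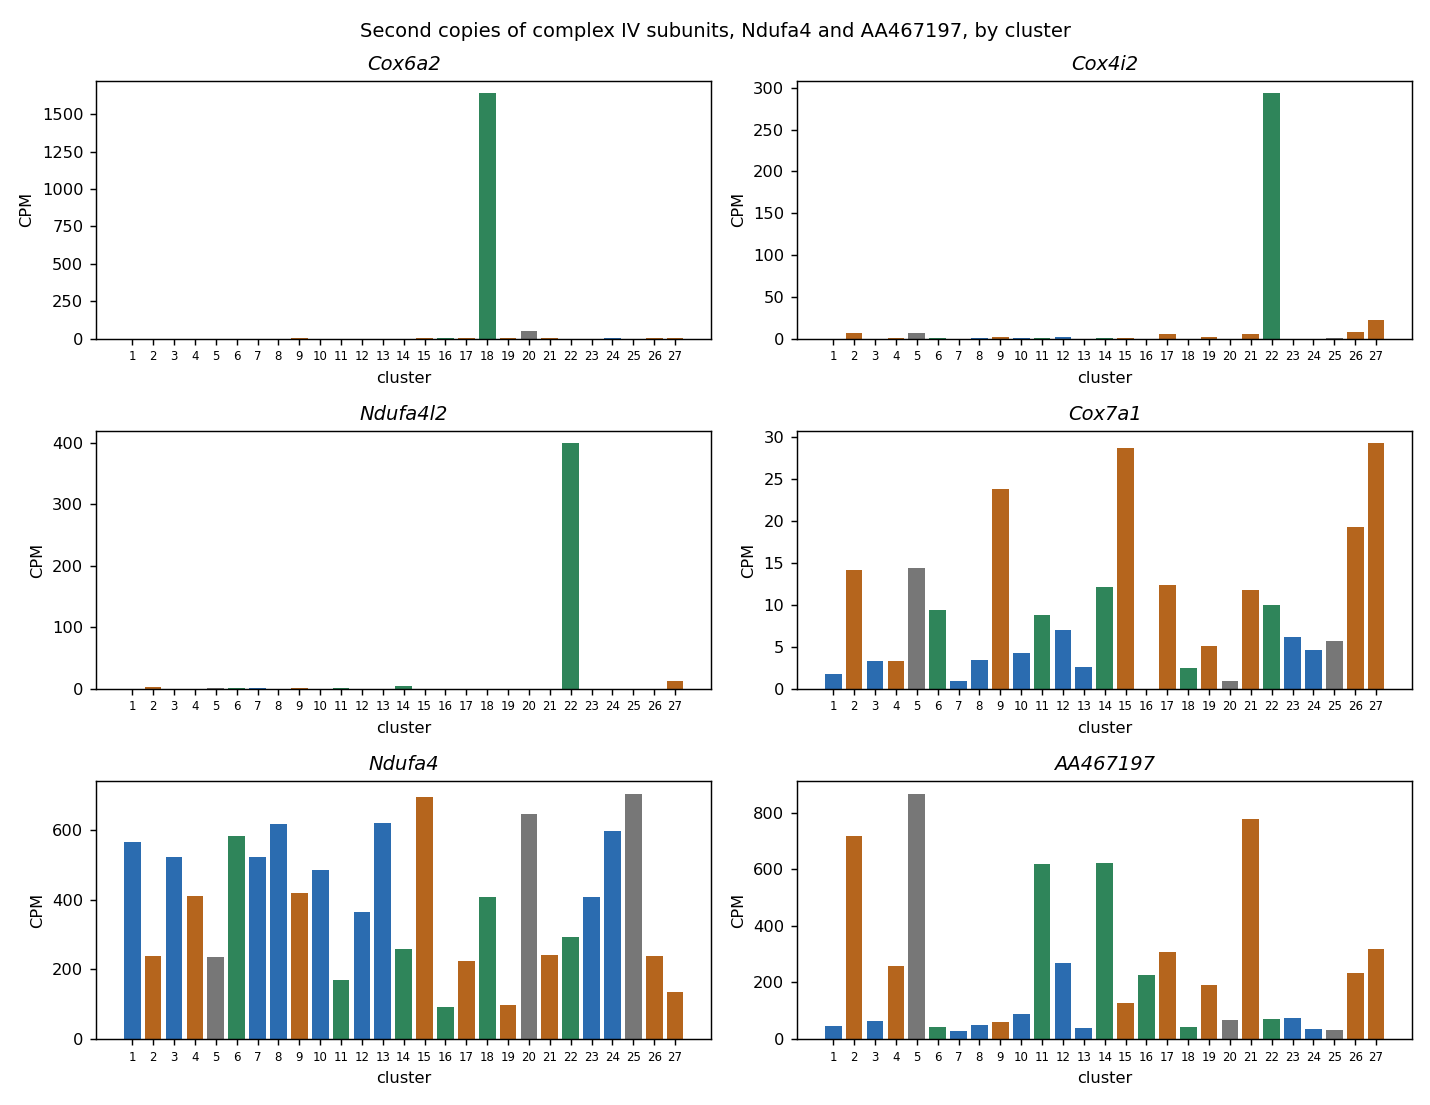
Levels of Cox6a2, Cox4i2, Ndufa4l2, Cox7a1, Ndufa4 and AA467197 in the summed cells of each cluster, in CPM, with bars for macrophage (brown), T/NK (blue), other named (green) and unnamed (grey) clusters. Cox6a2 peaks in cluster 18, Cox4i2 and Ndufa4l2 in cluster 22 and then 27, and Cox7a1 is spread over macrophage clusters.

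Cox7a1, the muscle form of Cox7a, was lower and more even, at 29.2 CPM in cluster 27, 28.6 CPM in cluster 15, 23.7 CPM in the Lyve1 macrophage cluster 9 and 0.944 CPM in T/NK cluster 7. Cluster 27 ran from 6.88 to 63.0 CPM over tumors and cluster 2 from 4.55 to 22.3 CPM. Cox6b2, a testis form, peaked at 16.7 CPM in cDC2. Cox7b2, Cox8b and Cox8c were barely seen, with 49, 4 and 1 UMIs in all cells, and 73.5% of the Cox7b2 UMIs lay in cluster 20. Cox7a2l, which joins complexes III and IV in supercomplexes, was even across clusters and highest in migratory DC (194 CPM). Atp5g1, Atp5g2 and Atp5g3 encode the same mature c subunit, and each was highest in cluster 15 (987, 1117 and 1826 CPM).

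Ndufa4 and a paralog of it differed between cell classes. Ndufa4, counted here with complex IV, was 397 to 865 CPM over 28 tumors of T/NK cluster 8 (median 574 CPM) and 474 to 721 CPM over 19 tumors of cDC1 (median 590 CPM). In macrophages it was 112 to 378 CPM in cluster 2 (median 239 CPM) and 44.6 to 294 CPM in cluster 27 (median 135 CPM), so that no tumor of cluster 2 reached the lowest tumor of cluster 8. AA467197, a paralog of Ndufa4 that is not one of the 94 genes and was chosen after its values were seen, was high in some of the clusters where Ndufa4 was low: 232 to 1518 CPM in cluster 2 (median 633 CPM), 217 to 1128 CPM in cDC2 (median 601 CPM) and 0 to 194 CPM in cluster 8 (median 39.7 CPM). Ndufaf4 was highest in T/NK cluster 13, led by Il2 and Ifng, at 59.8 to 131 CPM over 5 tumors, against a median of 26.5 CPM in cluster 8 and 21.3 CPM in macrophage cluster 2.

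The conditions were compared over tumors, with UMIs summed per tumor over all macrophages or all T/NK cells and edgeR's quasi-likelihood test with Benjamini-Hochberg adjustment over all genes tested. A gene was called at an adjusted p under 0.05. The SE given with a log2 difference was derived from that difference and the F statistic of the test, so it is approximate. Where tumors are summed, a change in the makeup of the clusters and a change within cells cannot be told apart.

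The effect of aPD1 after 48 h was compared within each class. In macrophages of responder strains, 0 of 89 tested genes were called, where 0% of all 10998 genes were called. In non-responder strains it was 0 of 91 genes, with 0% of all genes. The test of the difference between both effects (the interaction of treatment and class) called 0 of 91, with 0% of all genes. At an unadjusted p under 0.05 the counts were 3, 0 and 2 of these genes, where 12.2%, 1.39% and 5.24% of all genes passed, and DESeq2 called 0 in each. The summed share of the 94 genes in macrophages was 2.74 ± 0.308% with isotype and 2.76 ± 0.169% with aPD1 in responder strains (SD, n = 10 each), and 2.81 ± 0.217% and 2.86 ± 0.223% in non-responder strains (SD, n = 9 each), differences smaller than the spread between tumors.

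The 3 genes past the unadjusted level in responder macrophages were Ndufaf4, Uqcrh and Cox7a2l. Ndufaf4 was at 14.7, 24.8 and 31.7 CPM (lowest, median and highest of 10 isotype tumors) and at 13.6, 19.4 and 26.4 CPM in 10 aPD1 tumors. The groups overlapped, and the log2 difference was -0.33 ± 0.11 (SE) with an adjusted p of 0.316 by edgeR. Uqcrh, the hinge protein of complex III, had log2 0.21 (adjusted p = 0.324) and Cox7a2l log2 0.21 (adjusted p = 0.336). In the 20 alternatives the adjusted p of Ndufaf4 ran from 0.00893 to 0.755, that of Uqcrh from 0.121 to 0.827 and that of Cox7a2l from 0.155 to 0.932, with the direction kept in each. In non-responder strains the 3 log2 differences were 0.09, -0.07 and 0.00.

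In macrophage cluster 2 alone, the largest one, led by Cxcl2 and Il1b, 3 of 89 genes were called in responder strains, all lower with aPD1, where 6.10% of all genes were called. Ndufaf4 was at 19.7, 28.2 and 39.1 CPM (lowest, median and highest of 9 isotype tumors) and at 11.76, 15.97 and 24.96 CPM in 10 aPD1 tumors. The log2 difference was -0.67 ± 0.14 (SE, adjusted p = 0.00893). Ndufa10, a complex I subunit, had log2 -0.28 (adjusted p = 0.0295) and Atp5g1 log2 -0.34 (adjusted p = 0.0373). No other alternative, all on the summed macrophages, called any of these 3 genes. The adjusted p reached 0.755 for Ndufaf4, 0.938 for Ndufa10 and 0.9997 for Atp5g1. The direction of Atp5g1 turned without CC075 (log2 0.02). In the 18 non-responder tumors the same 3 genes had log2 0.18, 0.05 and 0.07, with adjusted p = 0.9999 each. The test of the difference between the classes gave adjusted p = 0.157 for Ndufaf4, 0.551 for Ndufa10 and 0.631 for Atp5g1. A difference between classes was therefore not shown.

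In T/NK cells, aPD1 against isotype called 0 of 83 genes in responder strains, with 0% of all genes, and 0 of 82 in non-responder strains, with 0.0325% of all genes. At an unadjusted p under 0.05 there were 5 and 0, where 5.60% and 4.57% of all genes passed, and DESeq2 called 0 in both. In responder strains 64 of the 83 log2 differences were positive, with a median of 0.05 beside -0.01 over all genes. The share was 2.88 ± 0.21% with isotype and 2.98 ± 0.136% with aPD1 (SD, n = 10 each). Ndufaf4, named above for its macrophage values, was at 36.4 ± 5.96 CPM with isotype and 30.7 ± 4.80 CPM with aPD1 (SD, n = 10 each), with an adjusted p of 0.871. In non-responder T/NK cells it went the other way, with log2 0.21 (adjusted p = 0.9997 by edgeR).

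Between responder and non-responder strains, 4 of 91 genes were called in macrophages, where 5.95% of all 11162 genes were called, so the share of these genes was near that of all genes. Ndufc2, Cox4i2 and Cox7a2l were higher in responder strains (3.66% of all genes) and Ndufaf2 was lower (2.29% of all genes). With the pool as a block all 4 stayed called, and Cox7a1 (log2 -0.34, adjusted p = 0.0142) and Atp5o (log2 -0.16, adjusted p = 0.042) were lower as well, which made 6 of 91 where 7.57% of all genes were called. The median log2 difference over the 91 genes was 0.01, beside 0.00 over all genes, and the 94 genes took up 2.75 ± 0.242% of UMIs over 20 responder tumors and 2.84 ± 0.215% over 18 non-responder tumors (SD).

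Ndufc2, a subunit of the membrane arm of complex I at chr7:97400003-97407802, was at 261, 308 and 395 CPM (lowest, median and highest of 20 responder tumors) and at 212, 266 and 339 CPM in 18 non-responder tumors. The groups overlapped, and the log2 difference was 0.29 ± 0.057 (SE, adjusted p = 0.00118). By strain, the means were 346 CPM in CC075, 307 CPM in CC001 and 292 CPM in CC002, against 282 CPM in CC080, 266 CPM in CC079 and 254 CPM in CC036.

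Cox7a2l was at 107, 147 and 179 CPM in responder and at 99.9, 131 and 146 CPM in non-responder tumors, a log2 difference of 0.24 ± 0.062 (SE, adjusted p = 0.0128). CC002 tumors, at 151 to 172 CPM, all lay above the highest non-responder tumor, while the CC001 and CC075 tumors overlapped with the non-responder tumors. In CC075 the 3 isotype tumors had 107, 118 and 126 CPM and the 3 aPD1 tumors 135, 179 and 179 CPM, a split picked out after the values were seen and not tested within that strain.

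Ndufaf2, an assembly factor of complex I, was at 16.4, 24.9 and 39.1 CPM in responder and at 23.4, 34.8 and 43.3 CPM in non-responder tumors, a log2 difference of -0.33 ± 0.092 (SE, adjusted p = 0.0225).

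Cox4i2 was low in the summed macrophages, at 3.84, 9.01 and 15.5 CPM in responder and 2.02, 5.59 and 12.1 CPM in non-responder tumors. The log2 difference was 0.74 ± 0.19 (SE, adjusted p = 0.0124). Leaving out cluster 27, where it was highest among macrophages, the means were 8.16 ± 3.44 CPM and 4.72 ± 2.14 CPM (SD, n = 20 and 18). Cluster 27 made up 7.22% of responder and 7.78% of non-responder macrophages. Since cells of cluster 22 carried far more Cox4i2, the summed fibroblast and pericyte markers in macrophages are given beside it. Fibroblast markers had 3.27 to 14.7 CPM in responder and 2.36 to 17.0 CPM in non-responder tumors, with means of 7.65 and 7.96 CPM, while the summed pericyte markers had means of 5.34 and 8.81 CPM. The means of other cells' markers were higher in responder macrophages, at 39.0 against 29.9 CPM for endothelial, 13.05 against 11.03 CPM for T/NK and 53.7 against 46.7 CPM for B cell markers, each within the spread between tumors. The part of these markers in the result was not tested.

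All 3 responder strain means were above all 3 non-responder means for Ndufc2, Cox4i2 and Cox7a2l, and below for Ndufaf2. That these 4 genes show it is no separate support, since they were called on the same contrast. Among the 91 genes all responder means were higher for 3 genes, where this was so for 3.41% of all genes, and lower for 10, where it was so for 8.39%. A class is a property of 3 strains. With the tumors summed per strain and treatment, 0 of 91 genes were called. The isotype and aPD1 sums of a strain still counted separately there. The share of all genes called in that setting is not given, so it shows only how stable the count was. The 4 genes kept their direction in all 31 alternatives. Ndufc2 stayed called in 28 of these, Cox7a2l in 23 and Cox4i2 and Ndufaf2 in 21 each. Many of these alternatives refit most of the same tumors. Of the 4 genes, only Ndufc2 stayed called in cluster 2 alone and only Cox7a2l in pools 1 to 6. In pools 7 to 12 only Ndufaf2 and Ndufc2 did. The adjusted p ran from 4.81e-05 to 0.726 for Ndufc2, from 0.00219 to 0.992 for Cox7a2l, from 0.00349 to 0.944 for Cox4i2 and from 0.00269 to 0.971 for Ndufaf2.

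**Figure D4:**
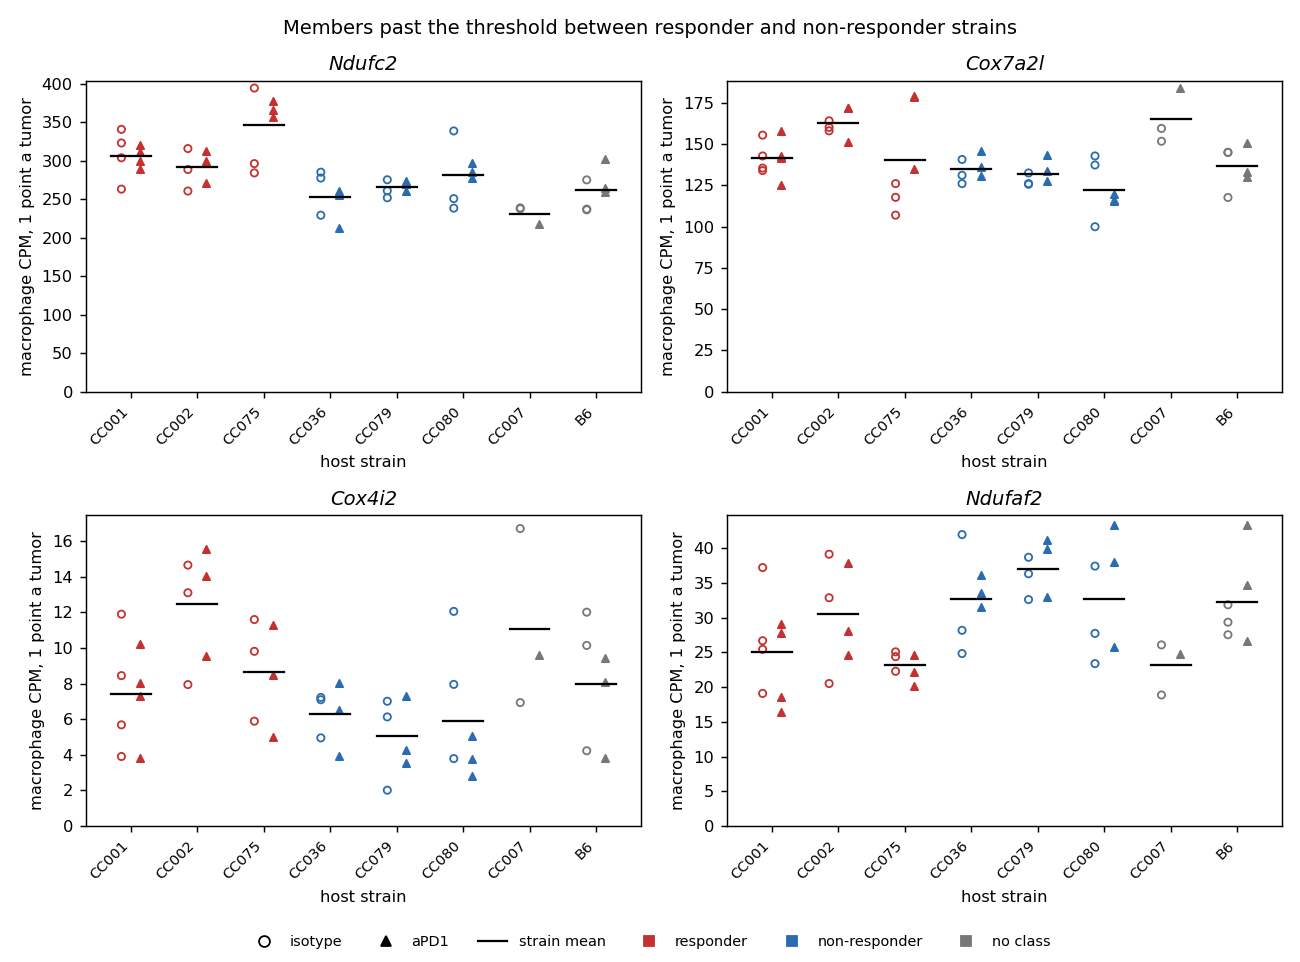
Levels in macrophages of the 4 genes called between response classes, in CPM, with 1 point for each tumor by host strain (open circles isotype, triangles aPD1) and a line at the strain mean. Responder strains (red) stand left of non-responder strains (blue), and the tumors of both classes overlap for each of the 4 genes.

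In T/NK cells 0 of 82 genes were called between the classes, where 2.09% of all 6595 genes were called. At an unadjusted p under 0.05 there were 12, where 13.9% of all genes passed, and DESeq2 called 0. Of the 82 log2 differences 71 were positive, with a median of 0.09 beside -0.01 over all genes. Without the CC036 tumors the median was -0.03. It was -0.02 in pools 1 to 6 and 0.24 in pools 7 to 12. CC036 tumors were in pools 8, 9 and 10 alone, beside B6 tumors in pool 8 and CC075 tumors in pools 9 and 10. Strain and pool were thus only partly separate, and the part of each in this lean was not tested. All 3 responder strain means were higher for 3 of 85 genes, where this was so for 2.30% of all genes, and lower for 1, Ndufaf2, where it was so for 6.09%. Ndufc2 had log2 0.05 (adjusted p = 0.82), Cox7a2l log2 0.19 (adjusted p = 0.212) and Ndufaf2 log2 -0.17 (adjusted p = 0.684) in T/NK cells.

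Other genes of respiration were counted from fixed lists. Of 12 mitochondrial genome subunit genes in the table, 0 were called between classes in either kind of cell, with 2 of 12 log2 differences positive in macrophages (median -0.12) and 0 of 12 in T/NK cells (median -0.08). Of the complex assembly and carrier genes, 1 of 32 was called in macrophages, Surf1, a complex IV assembly factor (log2 0.33, adjusted p = 0.00512), and 1 of 21 in T/NK cells, Cox17, the copper chaperone of complex IV (log2 0.54, adjusted p = 0.00199). Cox17 was at 611, 935 and 1315 CPM in responder and 482, 639 and 931 CPM in non-responder T/NK cells (lowest, median and highest). Of 18 TCA cycle genes, Fh1, fumarate hydratase, was lower in responder macrophages (log2 -0.33, adjusted p = 0.0202) and 0 of 16 tested were called in T/NK cells. Of the mitochondrial biogenesis factors 0 of 15 and 0 of 8 were called. Between the classes, 5.95% of all genes were called in macrophages and 2.09% in T/NK cells. With aPD1, 0 genes of any of these lists were called in either class or kind of cell. Between host strains, 9 of 12 mitochondrial genome genes were called in macrophages and 7 of 12 in T/NK cells, 18 of 32 and 4 of 28 assembly and carrier genes, 8 of 18 and 1 of 17 TCA cycle genes, and 8 of 15 and 1 of 11 biogenesis factors, where 51.4% and 24.6% of all genes were called.

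The 8 kinds of host were compared next, a comparison in which many of all genes were called. Each p here and for the genes below tests any difference among the 8 kinds of host. The highest and lowest strain named with it were picked afterwards and not tested against each other. In macrophages of 47 tumors, 38 of 91 genes (41.8%) differed between them, where 51.4% of all 12463 genes did. In T/NK cells of 46 tumors, 25 of 85 (29.4%) differed, where 24.6% of all 8379 genes did. The T/NK count was unstable, at 6 without pool 9, 56 without pool 6 and 0 in isotype or aPD1 tumors alone, and the macrophage count was 1 in isotype and 12 in aPD1 tumors alone. The shares of all genes in these settings are not given, so these counts show only how stable the count was. At an unadjusted p under 0.05 there were 48 and 42, where 59.1% and 37.9% of all genes passed. The ratio of the highest to the lowest strain mean had a median of 1.44 in macrophages and 1.46 in T/NK cells. In 18 of the 38 and 16 of the 25 genes, the tumors of the highest and lowest strain, picked as the extremes of 8, did not overlap, as was so for 56.2% and 56.7% of all genes called. The pool was then taken as a block, which within each pool sets a strain against the 1 other strain there. With it, 8 of 91 genes (8.79%) were called in macrophages, all 8 among the 38, where 12.6% of all genes were called. For T/NK cells it was 2 of 85 (2.35%), Ndufs4 and Ndufs5, of which Ndufs5 was among the 25, where 7.18% of all genes were called. Of all genes called without the block, 23.8% in macrophages and 26.1% in T/NK cells were called with it.

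The loci of the 3 genes of smallest p in macrophages are shown first. The windows from 250 bases before to 50 bases after their RefSeq starts are printed, on the gene's strand, on GRCm38.p6. Gene places elsewhere are from GENCODE, whose starts can differ. The Atp5g2 window lies inside the gene as GENCODE places it, chr15:102662864-102672352. Capitals mark matches to the NRF1 motif GCGCATGCG, a factor known to drive respiratory genes, searched on both strands, which overlap here by all but 1 base at each end. Atp5g2 is at chr15:102670998-102671297 (minus), Ndufa10 at chr1:92473709-92474008 (minus) and Ndufc2 at chr7:97399753-97400052 (plus).
Atp5g2: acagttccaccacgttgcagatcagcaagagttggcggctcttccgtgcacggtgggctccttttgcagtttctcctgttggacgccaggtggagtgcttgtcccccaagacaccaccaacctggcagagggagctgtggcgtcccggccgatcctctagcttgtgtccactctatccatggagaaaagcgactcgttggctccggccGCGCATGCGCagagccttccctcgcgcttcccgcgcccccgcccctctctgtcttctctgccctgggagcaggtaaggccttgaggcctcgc
Ndufa10: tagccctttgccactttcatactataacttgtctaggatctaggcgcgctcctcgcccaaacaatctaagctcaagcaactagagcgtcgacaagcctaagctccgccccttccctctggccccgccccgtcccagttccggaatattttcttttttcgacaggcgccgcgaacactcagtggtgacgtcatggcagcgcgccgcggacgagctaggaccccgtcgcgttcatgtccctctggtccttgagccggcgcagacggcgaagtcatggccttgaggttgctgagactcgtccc
Ndufc2: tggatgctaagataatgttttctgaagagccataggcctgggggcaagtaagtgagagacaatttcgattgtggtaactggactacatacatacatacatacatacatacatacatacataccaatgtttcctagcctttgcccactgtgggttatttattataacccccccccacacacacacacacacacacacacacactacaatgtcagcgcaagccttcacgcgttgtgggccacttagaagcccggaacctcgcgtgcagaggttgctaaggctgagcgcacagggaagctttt
RefSeq windows were matched for 77 of the 94 genes (82 windows). GCGCATGCG was in 10 of them (12.2%) and in 1.75% of all 32851 windows, the GABP motif CCGGAAG in 19 (23.2%) against 8.86%, and the YY1 motif AAGATGGCG in 8 (9.76%) against 1.40%. These are letter matches and not tested sites, and the windows of Ndufa10 and Ndufc2 held none of the 3 motifs.

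Atp5g2 was highest in CC002 macrophages, at 680, 735 and 785 CPM (lowest, median and highest of 6 tumors), and lowest in CC075, at 368, 479 and 571 CPM in 6 tumors (adjusted p = 6.92e-05). The tumors of the 2 strains did not overlap, and CC036 (505 CPM on average) was near CC075. Ndufa10 was highest in CC079, at 78.5, 95.1 and 108 CPM, and lowest again in CC075, at 53.6, 60.2 and 70.1 CPM (adjusted p = 7.94e-05). Ndufc2 was the reverse for CC075, which was highest at 284, 362 and 395 CPM, while the 3 CC007 tumors were lowest at 218, 238 and 239 CPM (adjusted p = 8.19e-05). CC075 was thus the lowest strain for 2 of these genes and the highest for the other. With the pool block Ndufc2 stayed called (adjusted p = 0.000815), while Atp5g2 (adjusted p = 0.404) and Ndufa10 (adjusted p = 0.175) did not.

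Ndufs5 and Ndufa6, both complex I subunits, differed in both kinds of cell. Ndufa6 was highest in CC002 and lowest in CC001 in each. In macrophages CC002 ran from 389 to 440 CPM (median 403 CPM, n = 6) and CC001 from 281 to 347 CPM (median 292 CPM, n = 8), with an adjusted p of 0.000207. In T/NK cells CC002 ran from 380 to 478 CPM (median 405 CPM) and CC001 from 270 to 312 CPM (median 286 CPM), with an adjusted p of 0.000264. The tumors of these strains did not overlap in either kind of cell, and both strains are responders. Ndufs5 was highest in CC079 in each kind of cell. Its 3 CC007 tumors had 128, 129 and 132 CPM in macrophages against 196 to 222 CPM in 6 CC079 tumors (adjusted p = 0.000114). In T/NK cells CC036 was lowest, at 109 to 152 CPM, against 166 to 264 CPM in 5 CC079 tumors (adjusted p = 0.00186). With the pool block Ndufs5 stayed called in both kinds of cell (adjusted p = 0.0248 and 0.0404), and Ndufa6 in macrophages (adjusted p = 0.0295) but not in T/NK cells (adjusted p = 0.132).

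Ndufb1-ps, listed as a non-coding gene in the annotation of the reference though its name refers to the complex I subunit Ndufb1, was highest in B6 macrophages, at 574, 1022 and 1116 CPM, and lowest in CC079, at 476, 529 and 629 CPM (adjusted p = 0.000223). The B6 tumors spread widely and overlapped with CC079, and the call was lost with the pool block (adjusted p = 0.297). The other macrophage genes among the 15 of smallest p included Ndufaf2, Cox7a2l, Ndufaf3, Ndufv2, Cox4i2, Cox6a2, Atp5d and Atp5g1, with adjusted p from 0.00189 to 0.00703. Of those named, Ndufaf2, Ndufv2 and Cox4i2 stayed called with the block. Cox6a2 was very low in macrophages, with strain means from 1.13 CPM in CC075 to 2.86 CPM in CC079, whose tumors overlapped. Only 11.2% of its UMIs fell in macrophage clusters, and the part of stray RNA from other cells was not tested. Of the 38 genes called, 18 were highest in CC079 and 8 in CC002, and 15 were lowest in CC075, 7 in CC036 and 6 in CC007. Over all genes called, 25.2% were highest in CC079 and 7.397% in CC002, and 18.5% were lowest in CC075, 12.2% in CC036 and 9.41% in CC007. The makeup of the macrophages differed too, with 1.32 ± 1.06% of cells in cluster 15 in CC079 and 0.0688% to 0.768% on average in the other hosts, and 8.30 ± 1.78% in the low cluster 19 in CC036 (SD, n = 6 each), and the part of this in the result was not tested.

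In T/NK cells the low strain was CC036, a non-responder, which had the lowest mean for 22 of the 25 genes called and for 46 of the 85 tested, where 22.3% of all genes called and 14.9% of all genes tested were lowest there. CC036 tumors were in pools 8, 9 and 10 alone and CC079 tumors in pools 1, 2 and 5 alone, so that no pool held both. Sdhb, the iron-sulfur subunit of complex II, was at 45.7, 66.8 and 114 CPM in 6 CC036 tumors and at 132, 159 and 247 CPM in 5 CC079 tumors, a ratio of means of 2.28 (adjusted p = 0.00474). Atp5c1, the central stalk of ATP synthase, was at 124, 154 and 240 CPM in CC036 and at 258, 274 and 287 CPM in CC079 (adjusted p = 0.00144). Cox8a was at 871, 980 and 1210 CPM in CC036 and 1369, 1506 and 1631 CPM in CC002 (adjusted p = 0.00258). The CC036 tumors did not overlap with the highest strain in any of the 3 genes. The rest of the 15 of smallest p were Ndufa13, Atp5g2, Ndufs8, Atp5d, Ndufb8, Cox4i1, Atp5j, Cox6c, Atp5e and Uqcrfs1, each lowest in CC036, with ratios of 1.26 to 1.90. With the pool block none of these 13 genes stayed called by edgeR, with adjusted p = 0.275 for Sdhb, 0.685 for Atp5c1 and 0.0515 for Cox8a.

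The summed share was lowest in CC036 T/NK cells too. It was 2.49 ± 0.244% there (SD, n = 6), from 2.24% to 2.88%, and between 2.68% and 3.02% on average in the other 7 kinds of host. In pool 8, where CC036 shared a library with B6, the B6 tumors were as low, at 2.36% and 2.37% beside 2.35% and 2.48% in CC036. The B6 tumors of pool 6 had 3.30% and 3.53% and those of pool 7 had 2.60% and 2.84%. In pool 9 CC036 was lower than CC075, at 2.24% and 2.31% beside 2.50% and 2.75%. In pool 10 they overlapped, at 2.68% and 2.88% in CC036 and 2.65% and 2.94% in CC075. CC036 T/NK cells also had the highest mitochondrial genome share (1.80 ± 0.114%) and the lowest ribosomal share (22.8 ± 1.49%), and the part of this in the result was not tested. The makeup of T/NK cells differed as well. CC079, highest for 13 of the 25 genes and for 26.1% of all genes called, had 45.4 ± 14.5% of its T/NK cells in the Foxp3 cluster 8, where CC036 had 15.3 ± 7.04%, and only 3.93 ± 3.46% in cluster 3, where CC036 had 14.3 ± 7.18%. Cluster 7 held 29.8 ± 2.22% of T/NK cells in CC036, 22.1 ± 7.17% in CC079 and 18.6% to 28.8% on average in the other hosts. The part of this makeup in the result was not tested. In cluster 7 alone, the largest T/NK cluster, 0 of 73 genes were called by edgeR with 34 tumors, where 1.81% of all genes were called, and 2 of 73 had an unadjusted p under 0.05, where 14.1% of all genes had. In macrophages the mean share ran from 2.63 ± 0.26% in CC075 to 2.95 ± 0.166% in CC080.

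Both kinds of cell came from the same animals. The 14 genes called in both were 36.8% of the 38 and 56.0% of the 25, and 8 of the 14 had the same highest and 6 the same lowest strain. Over all genes, those called in both were 22.2% of the genes called in macrophages and 68.8% of those called in T/NK cells, and 47.5% of them had the same highest and 34.6% the same lowest strain. They included Ndufa6, Ndufa7, Ndufb8, Ndufs5 and Ndufs8 of complex I, Uqcrfs1 of complex III, Cox5b, Cox6c and Cox8a of complex IV, and Atp5c1, Atp5d, Atp5g1 and Atp5g2 of complex V.

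**Figure D5:**
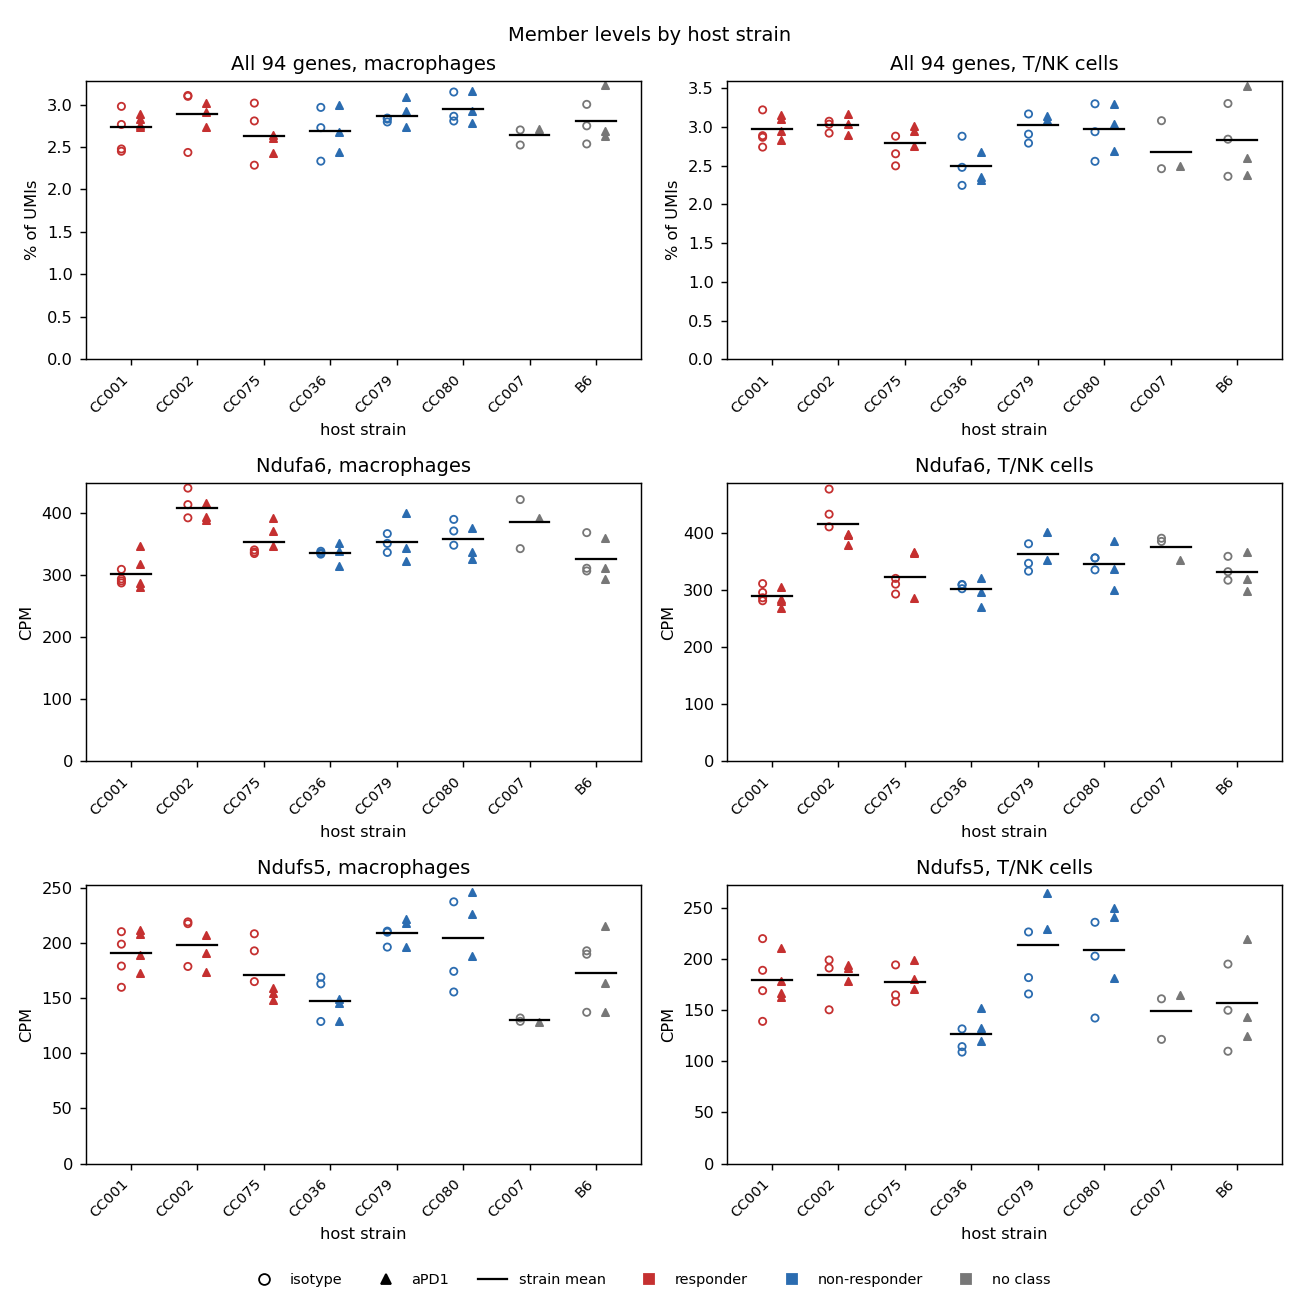
Share of UMIs from the 94 genes, in percent, and levels of Ndufa6 and Ndufs5, in CPM, in macrophages (left) and T/NK cells (right), with 1 point for each tumor by host strain and a line at the strain mean. Ndufa6 is highest in CC002 and lowest in CC001 in both kinds of cell, and CC036 is lowest in T/NK cells for the share and for Ndufs5.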

How the data were processed

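UMI counts of cells sorted from MC38 tumors were deposited by the authors as raw counts per gene and cell, made with Cell Ranger on GRCm38 (mm10), with clusters from Seurat 5.0.1 and harmony. Cells above a mitochondrial or ribosomal limit had been removed by the authors (the highest shares left were 15.0% and 45.0%). The barcode, gene and cell tables gave each cell its tumor and cluster. Authors' clusters were named from marker lists: at least 3 markers and 50% of a list at 100 CPM, and no more markers of another class among the 10 leading genes.

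Counts were summed per tumor (at least 30 cells of the class) and tested with edgeR 4.0.16 (quasi-likelihood, TMM, filterByExpr) in R 4.3.3, with treatment or strain as covariate and Benjamini-Hochberg adjustment over all genes. Sums used Python 3.11.15. DESeq2 1.42.0, library size alone, no filter, leaving out each pool or strain, and a pool block were alternatives. The tested macrophage sums held 341196 to 10534295 UMIs, T/NK sums 133482 to 2256001, and values rest on counting error besides tumor spread. On simulated counts with 200 genes changed, 196 were recovered among 11162 genes (macrophage class test), with 7 false calls. For the T/NK class test it was 187 among 6595 genes, with 11 false calls. The size of the change made is not given here, and recovery of differences of the sizes reported above was not tested.

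Isotype and aPD1 tumors of a strain in a pool shared a library by the labels. Their deviations correlated with a median of 0.30 over 22 pairs in macrophages and 0.16 over 21 pairs in T/NK cells. The genes and lists were chosen with earlier results of these data known. The named genes were all called genes, up to the 15 of smallest p in each direction, the extremes of level by complex and by cluster, and all second copies. A CC007 tumor had too few macrophages and T/NK cells, and a CC079 tumor too few T/NK cells. Hashtag sequences were left aside. A gene that could otherwise be named is not reported here.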

Additional observations from a re-analysis of the deposited data

Results flagged for a closer look

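A pair of values stood far from the rest of their group of 9 tumors, of 38 groups examined for the called genes, and chance alone gives such a value in about 1 of 20 groups. Ndufc2 in macrophages of a CC036 tumor with aPD1 was 212 CPM, with the next lowest non-responder aPD1 tumor at 256 CPM. Cox7a2l in macrophages of a CC080 tumor with isotype antibody was 99.9 CPM, with the next lowest non-responder isotype tumor at 126 CPM.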

How the results depend on the processing

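The 4 genes called between classes in macrophages kept their direction in all 31 alternatives. Atp5g1, called with aPD1 in cluster 2 alone, turned without CC075. The median log2 difference over the genes, within 0.1 of 0 in each comparison, turned in 10 of 31 alternatives for macrophages between classes (-0.04 to 0.06), 2 of 30 for T/NK cells between classes (-0.03 to 0.24), 6 of 20 and 2 of 20 for aPD1 in responder and non-responder macrophages, 9 of 25 for the interaction, and 0 of 19 and 3 of 19 for aPD1 in responder and non-responder T/NK cells. Counts of called genes that moved by more than 1.5 times are given here, without the share of all genes called in each setting. They show only how stable a count was. For macrophages between response classes (4 genes) they were 7 with library size alone, which also moved the median of all genes to -0.06 on the log2 scale, 1 in cluster 2 alone, 0 with counts summed per strain and treatment, 0 in isotype tumors alone, 1 in pools 1 to 6, 2 in pools 7 to 12, and 2 each without CC002 and without CC079. For T/NK cells between classes (0 genes) they were 1 with the pool block (Atp5l), 1 with pools 1 to 6 against pools 7 to 12 as a term (Cox8a), 1 in pools 7 to 12 (Uqcrfs1), 2 without CC075 (Cox7a2l and Ndufa13) and 3 without CC080 (Atp5h, Atp5l and Cox8a). The split of the pools at 6 was made here and is not a batch given by the labels. For aPD1 in responder macrophages (0 genes) it was 3 in cluster 2 alone. For host strains in macrophages (38 genes) they were 25 with no filter, 8 with the pool block, 1 in isotype and 12 in aPD1 tumors alone. For host strains in T/NK cells (25 genes) they were 14 with library size alone, 16 with no filter, 2 with the pool block, 51 in the 6 strains with a class, and 0 in cluster 7, isotype tumors or aPD1 tumors alone. Leaving out 1 pool at a time gave 2 to 5, 0 to 1 (1 without pool 10, Ndufs6), 21 to 39 and 6 (without pool 9) to 56 (without pool 6) genes in these 4 comparisons, and 0 to 0 in the treatment and interaction tests. The block changed no call in those tests. The cause of these shifts was not tested, except that splits, cluster 7 alone and sums per strain use fewer tumors or cells. Counting cluster 5 as macrophages, chosen after seeing the data, gave 4 genes between classes and 37 between strains, 36 of them among the 38. The highest cluster share became 6.51% without mitochondrial genome and ribosomal protein totals.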
